A study of Mus musculus with 2 samples.

Results

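The EGF family ligands and the ErbB receptors were examined in ureters that lack PPARG function in the ureteric epithelium. The set comprised 10 of the 29923 genes on the array, taken by name: the ligands Egf, Tgfa, Areg, Ereg, Hbegf, Btc and Nrg1 and the receptors Egfr, Erbb2 and Erbb3. They were read by 12 probes, of which 3 belonged to Egfr. Total RNA came from ureters of NMRI mouse embryos at E18.5, pooled by sex and genotype, and was hybridised on 2 two-colour oligonucleotide arrays. Pparg-cKO embryos carried the Pax2-cre transgene, which is active in the nephric duct lineage and hence in the ureteric epithelium but not in the ureteric mesenchyme, and Pparg floxed on both alleles. Control embryos were littermates without the transgene that carried at least 1 floxed Pparg allele, the other allele not being specified in the labels. One array set a female Pparg-cKO pool against a female control pool, and the other array did so for males with the dyes exchanged. Each sex was thus represented by 1 array, so that sex, dye orientation and array cannot be told apart.

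Ligands of the EGF family are made as membrane-anchored precursors, and metalloproteases cut most of them free. Egf, Tgfa, Areg, Ereg, Hbegf and Btc encode ligands of the receptor tyrosine kinase EGFR, whereas Nrg1 encodes a neuregulin that binds ERBB3 and ERBB4. Ligand binding pairs the receptors, and the pairs signal through RAS and the MAP kinases. ERBB2 has no known ligand of its own and serves as partner of the others, and ERBB3 has little kinase activity and signals through its partner. In urothelial cell cultures, EGFR activity favours proliferation, and differentiation can be induced by a PPARG ligand combined with a block of EGFR.

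The probes that carry the values of the ligands Areg, Btc and Nrg1 and of the 3 receptor genes are shown because the result turns on what they read. They are given 5′ to 3′ in the sense of the transcript, as printed on the array, whole for 4 of them and as the first 30 bases for the others. Capitals mark a stop codon that closes an open reading frame running through the probe. The Nrg1 and the Erbb3 probes ended at such a codon, as did the second Egfr probe in the part not printed.
Areg, chr5:91570090-91570149, plus strand: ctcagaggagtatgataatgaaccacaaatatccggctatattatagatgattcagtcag
Btc, chr5:91786948-91787007, minus strand: ggatccttgtacattttactttacaagaga
Nrg1, chr8:32928500-32928559, minus strand: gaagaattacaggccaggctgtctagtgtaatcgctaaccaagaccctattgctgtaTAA
Egfr, transcript variant 1, chr11:16813815-16813874, plus strand: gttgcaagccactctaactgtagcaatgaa
Egfr, transcript variant 2, chr11:16787172-16787231, plus strand: gaagtgtggccatctgggtacgttcaatgg
Egfr, transcript variant 2, chr11:16783556-16783615, plus strand: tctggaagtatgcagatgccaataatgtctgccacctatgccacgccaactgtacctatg
Erbb2, chr11:98298103-98298162, plus strand: ggctatgccaggaacgtgccctgaggaacc
Erbb3, chr10:128006424-128006483, minus strand: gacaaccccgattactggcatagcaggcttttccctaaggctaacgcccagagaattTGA

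Positions are those of the array design on mouse build mm9, and each interval spans the whole 60-base probe. Exon structure of that build was not analysed here. Epgn, Ereg, Areg and Btc follow one another as neighbouring protein-coding genes in the RefSeq order of assembly GRCm38.p6, between Mthfd2l and Parm1. Their probes lie within 322.9 kb, with Epgn at chr5:91464119-91464178 and Ereg at chr5:91522553-91522612. The Egf probe lies at chr3:129380826-129380885, the Tgfa probe at chr6:86224838-86224897 and the Hbegf probe at chr18:36664738-36664797.

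Each gene is described by 2 measures. The signal is the processed spot brightness from the scanner software, averaged over up to 4 spots of the probe, and it has no unit that allows one probe to be set against another. The log2 ratio is the Pparg-cKO pool over the control pool on one array after background correction with an offset of 50 and loess normalisation, which draws the ratios of dim probes towards 0. Values are given as the mean of both arrays ± SD (n = 2 arrays), so the p-values rest on the spread between 2 pairs of pools, which nothing identifies as biological replicates beyond being separate pools. The signs follow the deposited value table, which by its column titles is Pparg-cKO against control and which runs in the direction of the study's legends and tissue sections. This direction is likely but not settled. By the dye labels as written every higher and lower below is exchanged, while sizes, total counts and p-values stay.

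None of the 10 genes was called. The fold rule asks for 1.5-fold or more the same way on both arrays, as the study did, and reads the study's intensity threshold of 100 as a signal that 1 channel of each array must reach. It was met by 0 of the 5 bright enough on both arrays. Among all 14015 genes that bright, 0.792% were past it as higher and 1.05% as lower. In limma, 0 of the 9 tested passed an adjusted p of 0.05 (Benjamini-Hochberg over 22499 genes), beside 0.382% of all genes called higher and 0.369% called lower. At an unadjusted p under 0.05 stood Btc and Erbb3, and Areg, which entered the test only through the control pools. Among all genes tested 8.51% did, and nothing is read from the count. Ratios were above 0 on both arrays for 5 of the 9 and below 0 on both for 2, where 26.6% and 26.2% of all genes lay. The median log2 ratio of the 9 was 0.01 in the female pair and 0.29 in the male pair, while over all genes tested it was -0.01 and 0.01.

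Both arrays were of similar quality. Of the spots, 66.2% to 77.3% were well above background depending on array and dye, 0 were saturated, and outlier flags removed 2.87% in the female pair and 3.24% in the male pair. The Pparg probe itself read 6114 in the female control, 12357 in the female Pparg-cKO, 6689 in the male control and 12930 in the male Pparg-cKO pool, a mean log2 ratio of 0.97 ± 0.02 (SD, n = 2 arrays; limma adjusted p = 0.0373). Whether that probe lies outside the deleted exons was not analysed here. The study describes a stable mutant transcript without them, raised over the control at this stage in its tissue sections. The level of the probe was not used to check the labels. All 5 superficial cell markers tested, among them Krt20 and the uroplakins, had ratios below 0 on both arrays, with medians of -1.30 and -0.73, and Krt20 stood at -3.14 and -3.03. Of the 5 basal markers, Krt14 with 1.11 and 0.90 and Krt15 with 1.17 and 1.19 were called higher by both rules. The others were not called and did not run 1 way. Trp63 was below 0 on both arrays with -0.53 and -0.44, Krt5 stood at -0.86 and 0.35, and Itga6 at 0.20 and 0.16. The male array held more genes at least 1.5-fold higher in the Pparg-cKO pool, 6.3% against 1.2% on the female array.

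Btc was higher in the Pparg-cKO pool on both arrays without passing either call rule. It encodes betacellulin, a ligand of EGFR that can also bind ERBB4. Its signal was 62.8 in the female control and 113 in the female Pparg-cKO pool, and 71.0 in the male control and 105 in the male Pparg-cKO pool. Both Pparg-cKO pools lay above both control pools. The log2 ratio was 0.77 in the female pair and 0.47 in the male pair, a mean of 0.62 ± 0.21 (SD, n = 2 arrays), or 1.54-fold. The 95% confidence interval was 0.30 to 0.94 (limma adjusted p = 0.19). The 4 spots ran from 0.70 to 0.83 on the female array and from 0.40 to 0.55 on the male array. Btc missed the fold rule because the male array fell short of 1.5-fold at 1.38-fold. For that rule Btc was bright enough only through the Pparg-cKO pools, where it was higher. It was the only one of the 10 genes at least 1.2-fold higher on both arrays, as 2.73% of all genes tested were. With normexp and no offset the adjusted p was 0.0389, and over all alternative settings it ranged from 0.0389 to 0.533.

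Areg, which encodes amphiregulin, an EGFR ligand that cultured urothelial cells make for themselves, ran the other way. Its signal was 7.95 in the female control and 2.32 in the female Pparg-cKO pool, and 6.74 in the male control and 1.17 in the male Pparg-cKO pool. The probe was well above background on 4 of 4 spots in the female control and on 2 of 4 spots in the male control, and on 0 spots in either Pparg-cKO pool. Areg was thus measured in the controls near the detection limit and not well above background in the Pparg-cKO pools. The log2 ratio was -0.36 in the female pair and -0.46 in the male pair, a mean of -0.41 ± 0.07 (SD, n = 2 arrays). The 95% confidence interval was -0.68 to -0.14 (limma adjusted p = 0.337). Set against the dimmest level still well above background on any probe, Areg was 1.21-fold lower in the Pparg-cKO pools over both arrays. That level is the lowest of all probes, so the fold is no firm lower limit. In the deposited values the log2 ratio was -0.61 in the female pair and -0.09 in the male pair. Apart from Areg, whose size is thus not settled, 0 members were at least 1.2-fold lower on both arrays, as 2.95% of all genes tested were.

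The size of the Areg ratio depended on the treatment of background, with a mean of -0.96 under normexp without an offset and of -2.15 from the processed signals. Areg entered the test only through the control pools, where it was high enough, so its p-values and the 1.21-fold are no measure of support. Since the RNA came from whole ureters, fewer cells of a type and less RNA per cell cannot be told apart for Areg or any gene below.

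**Figure D1:**
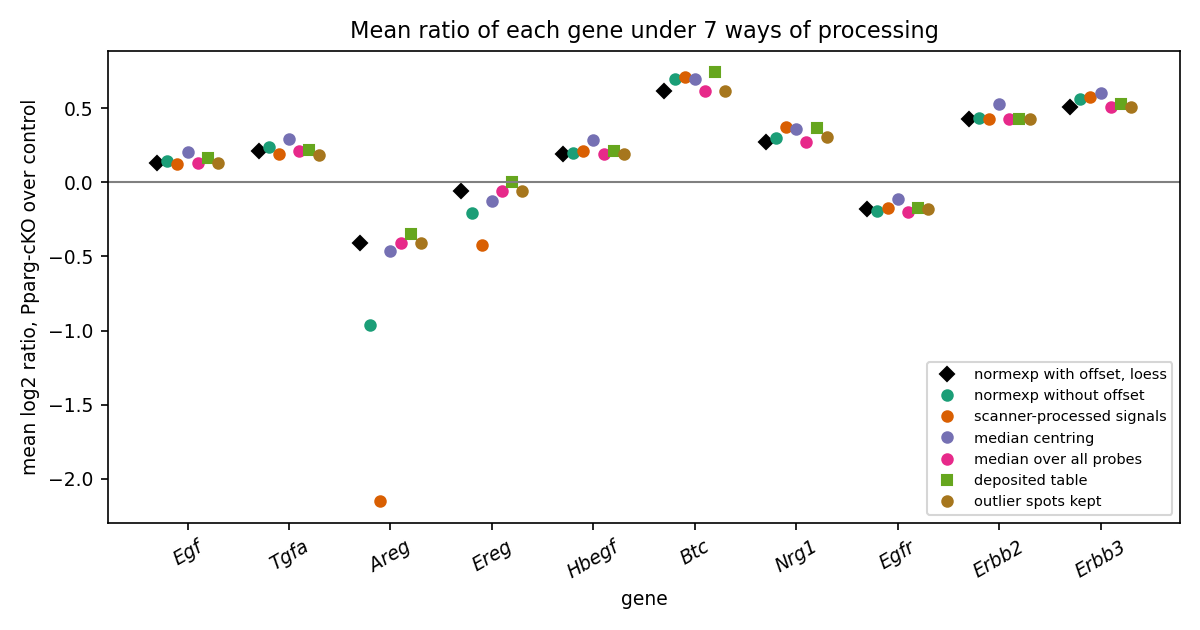
Mean log2 ratio of Pparg-cKO over control for each of the 10 genes under each way of processing the arrays, with 1 point for each setting. The Areg points spread from -2.15 to -0.35, whereas the Btc points stayed above 0 throughout.

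The remaining ligands of EGFR had mean ratios within 0.21 of 0. Egf encodes the epidermal growth factor itself, which the kidney tubule makes in quantity. Its signal was 63.9 and 63.7 in the female control and Pparg-cKO pools and 71.9 and 85.6 in the male ones, and the log2 ratio averaged 0.13 ± 0.23 (SD, n = 2 arrays; limma adjusted p = 0.885). The 95% confidence interval was -0.20 to 0.45. Of the kidney tubule markers, Umod, Slc12a1 and Slc12a3 were not well above background in any pool, and the 5 of that list summed to signals of 68.9 to 141 per pool.

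Tgfa, the gene of transforming growth factor alpha, read 85.9 and 82.4 in the female control and Pparg-cKO pools and 78.8 and 107 in the male ones. Its mean log2 ratio was 0.21 ± 0.34 (SD, n = 2 arrays; limma adjusted p = 0.797), with an interval of -0.17 to 0.59. For Egf as for Tgfa the female ratio lay just below 0, at -0.04 and -0.03, and the male ratio above it, at 0.29 and 0.45.

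Hbegf encodes the heparin-binding EGF-like factor, another EGFR ligand that cultured urothelial cells make. Its signal was 127 and 155 in the female control and Pparg-cKO pools and 160 and 175 in the male ones. The log2 ratio averaged 0.19 ± 0.10 (SD, n = 2 arrays; limma adjusted p = 0.735), with an interval of -0.09 to 0.47. The ratio was above 0 on both arrays, but the female Pparg-cKO pool lay below the male control pool.

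Ereg, the gene of epiregulin, was the one member that could not be tested. Its signals of 1.51, 1.95, 1.5 and 0.644 in the female control, female Pparg-cKO, male control and male Pparg-cKO pools were not well above background on any spot. No fold is given.

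Nrg1 differed between the arrays. Its signal was 84.4 and 133 in the female control and Pparg-cKO pools and 117 and 125 in the male ones. The log2 ratio was 0.53 in the female pair and 0.01 in the male pair, a mean of 0.27 ± 0.37 (SD, n = 2 arrays; limma adjusted p = 0.736) with an interval of -0.13 to 0.67. The female control pool was the lowest, and the other 3 pools lay between 117 and 133. Neuregulin 1 acts on Schwann cells through ERBB3, and of the 6 Schwann cell markers 0 were called, with medians of -0.06 and 0.02. Their summed signal was 6870 and 6941 in the female control and Pparg-cKO pools and 6303 and 6510 in the male ones.

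**Figure D2:**
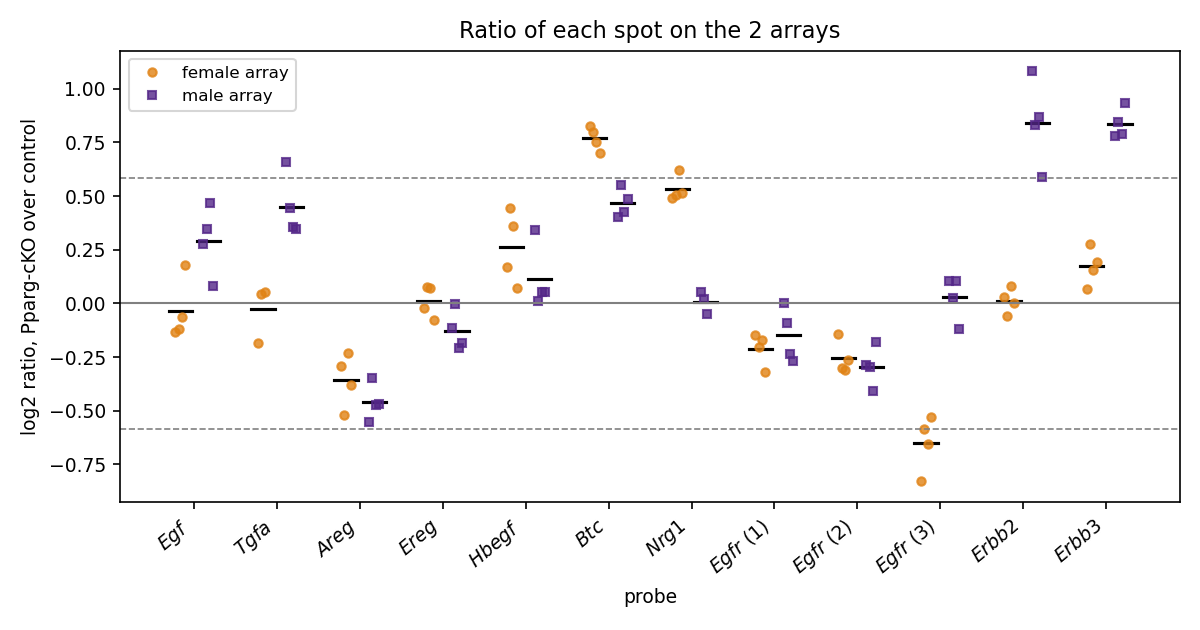
Log2 ratio of Pparg-cKO over control (y axis) of every kept spot of the 12 probes, with female and male arrays in different symbols, a bar at the mean of each array and dashed lines at 1.5-fold; Egfr (1) is the variant 1 probe, and Egfr (2) and (3) are the variant 2 probes nearer to and farther from the transcript's end. Btc lay above 0 and Areg below 0 on both arrays, whereas the Erbb2 and Erbb3 spots lay closer to 0 on the female array than on the male array, where both averaged 0.84.

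Among the receptors, Egfr was read by 3 probes. The brightest, against the end of transcript variant 1, read 1210 in the female control, 1072 in the female Pparg-cKO, 1253 in the male control and 1113 in the male Pparg-cKO pool. Both Pparg-cKO pools lay below both control pools. The log2 ratio was -0.21 in the female pair and -0.15 in the male pair, a mean of -0.18 ± 0.04 (SD, n = 2 arrays; limma adjusted p = 0.736) with an interval of -0.45 to 0.09. It passed neither call rule, and with median centring the ratio was -0.28 in the female pair and 0.05 in the male pair.

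The other Egfr probes were designed against transcript variant 2, which encodes a shorter form of the receptor, and RefSeq lists 2 Egfr transcripts. Their starts lie 89 bases apart on that transcript and 3616 bases apart in the genome. The probe nearer the transcript's end read 105 and 83.8 in the female control and Pparg-cKO pools and 100.3 and 80.8 in the male ones, with a mean log2 ratio of -0.28 ± 0.03 (SD, n = 2 arrays; limma adjusted p = 0.562 over all probes). The other probe read 190 and 118 in the female pools and 160 and 155 in the male pools. Its log2 ratio was -0.65 in the female pair and 0.03 in the male pair, a mean of -0.31 ± 0.48 (SD, n = 2 arrays; limma adjusted p = 0.741 over all probes). All 3 probes had a mean ratio below 0, and none was called.

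Erbb2, the gene of the shared partner receptor, differed between the arrays. Its signal was 322 and 343 in the female control and Pparg-cKO pools and 376 and 638 in the male ones. The male Pparg-cKO pool stood apart from the other pools. The log2 ratio was 0.01 in the female pair and 0.84 in the male pair, a mean of 0.43 ± 0.59 (SD, n = 2 arrays; limma adjusted p = 0.691), with an interval of -0.12 to 0.97. All 4 spots of the male array lay between 0.59 and 1.08. Erbb2 was the 1 member of the 5 bright enough that was at least 1.5-fold higher on the male array, as 6.3% of all genes that bright were. Btc was the 1 that was so on the female array, as 1.2% of all genes that bright were.

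Erbb3, which encodes the partner receptor that binds neuregulins, had a like pattern. Its signal was 60.98 and 69.4 in the female control and Pparg-cKO pools and 84.1 and 165 in the male ones. The log2 ratio was 0.17 in the female pair and 0.84 in the male pair, a mean of 0.50 ± 0.47 (SD, n = 2 arrays). The interval was 0.04 to 0.97 (limma adjusted p = 0.542). Again the male Pparg-cKO pool stood apart, and on the female array the probe was too dim for the fold rule.

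Genes of the epithelium at large likewise had higher ratios on the male than on the female array. Over the 10 general epithelial markers, all well above background, the median log2 ratio was -0.03 in the female pair and 0.51 in the male pair. Cdh1, the gene of E-cadherin, had ratios of 0.07 and 1.10, and Grhl2, an epithelial transcription factor, 0.14 and 0.77. Krt18, a keratin of simple and superficial epithelium, was below 0 on both arrays with -1.04 and -0.54, as was Cldn4, a tight junction gene, with -0.25 and -0.09. The summed signal of the list was 42510 and 29910 in the female control and Pparg-cKO pools and 36860 and 41250 in the male ones. Signals of different probes have no common unit, so that sum follows the brightest probes rather than the list. Krt18 carried much of it, with 20715 and 9932 in the female pools. The part of epithelial content in the Erbb2 and Erbb3 values was not tested.

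**Figure D3:**
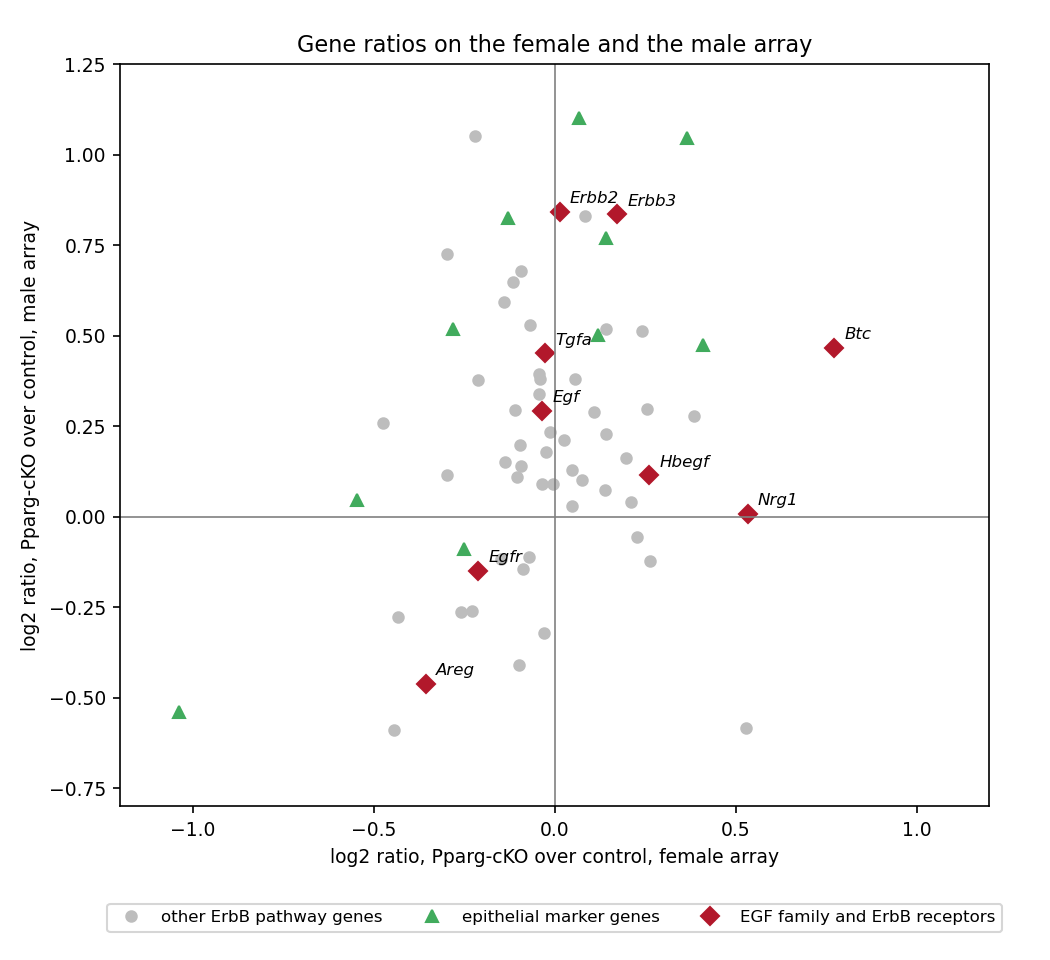
Log2 ratio of Pparg-cKO over control on the female array (x axis) against the male array (y axis), with 1 point for each tested gene of the set, of the listed ErbB pathway genes and of the epithelial markers. Erbb2 and Erbb3 lay at the top of the plot among several epithelial markers and pathway genes such as Spry1, Btc lay alone at the right, and Areg and Egfr lay at lower left.

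The rest of the pathway was followed with a list of 51 other genes, which was drawn up with earlier results of these data known. Of these, 48 were tested in limma and 37 were bright enough for the fold rule on both arrays, and 0 were called by either. At an unadjusted p under 0.05 there were 5 in limma, of which Cblb, Egr1 and Sos1 had ratios above 0 and Dusp4 and Fos below, a share near the 8.51% of all genes tested. The median log2 ratio of the 48 was -0.04 in the female pair and 0.17 in the male pair. Ratios were above 0 on both arrays for 15 of them and below 0 on both for 9, beside 26.6% and 26.2% of all genes.

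Upstream of the receptors, Epgn, the gene of epigen and neighbour of Ereg, read 13.9 and 12.4 in the female control and Pparg-cKO pools and 15.8 and 12.4 in the male ones, with a mean log2 ratio of -0.09 ± 0.03 (SD, n = 2 arrays; limma adjusted p = 0.909). Nrg4, a neuregulin that binds ERBB4, was dim throughout at 9.70 and 5.74 in the female and 8.33 and 4.55 in the male pools, and its ratio was -0.26 on both arrays (limma adjusted p = 0.595). Nrg3 and the receptor gene Erbb4 were not well above background in any pool. The 6 genes that release ligands, among them the metalloproteases Adam10 and Adam17, had medians of -0.12 in the female pair and 0.13 in the male pair. Adam10 read 5157 and 5473 in the female and 5731 and 5936 in the male pools, a mean log2 ratio of 0.09 ± 0.02 (SD, n = 2 arrays; limma adjusted p = 0.917).

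Of the 15 adaptors and signalling genes, from Grb2 and Shc1 to the MAP kinases, 0 were called and the medians were -0.03 and 0.23. Sos1, whose product loads RAS with GTP, had the largest mean ratio among them. It read 54.6 and 71.3 in the female and 49.5 and 73.2 in the male control and Pparg-cKO pools, a mean log2 ratio of 0.38 ± 0.19 (SD, n = 2 arrays; limma adjusted p = 0.466). Of the 8 negative regulators of the receptors, 0 were called and the medians were 0.17 and 0.13. Errfi1, whose product binds and blocks the EGFR kinase, read 1671 and 1938 in the female and 1776 and 2392 in the male pools, a mean log2 ratio of 0.33 ± 0.27 (SD, n = 2 arrays; limma adjusted p = 0.606).

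Of the 8 feedback genes of the MAP kinase pathway and the 8 tested transcripts that MAP kinase signalling induces, 0 were called. Spry1, a feedback inhibitor of receptor tyrosine kinase signalling, read 857 and 869 in the female and 817 and 1478 in the male control and Pparg-cKO pools, with log2 ratios of 0.08 and 0.83 and an adjusted p of 0.641 in limma. Phlda1, an early response gene, read 3043 and 2723 in the female and 2469 and 4901 in the male pools, with log2 ratios of -0.22 and 1.05 and an adjusted p of 0.805. In both, the male Pparg-cKO pool stood apart, as it did for Erbb2 and Erbb3.

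Fos and Dusp4 ran lower on both arrays. Fos, an immediate early transcription factor gene, read 434 and 325 in the female and 552 and 338 in the male control and Pparg-cKO pools, a mean log2 ratio of -0.52 ± 0.10 (SD, n = 2 arrays; limma adjusted p = 0.213). Dusp4, a phosphatase that acts on MAP kinases, read 30.2 and 18.3 in the female and 29.5 and 21.0 in the male pools, a mean of -0.35 ± 0.11 (SD, n = 2 arrays; limma adjusted p = 0.441). Egr1, another immediate early gene, had ratios of 0.38 and 0.28 and an adjusted p of 0.471. Egr1 and Fos, which both respond to MAP kinase signalling, thus had ratios of opposite sign on both arrays, and none of the 3 genes passed the adjusted threshold.

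Differences between the arrays were not tested, since there was 1 array for each sex. At least 1.2-fold in opposite directions on the female and male arrays were 0 of the 9 members tested, beside 1.38% of all genes tested. The sign of a single array changed with the processing for Egfr, as given above, and also for Nrg1 and Erbb2, to -0.01 for Nrg1 on the male array with normexp and no offset and to -0.07 for Erbb2 on the female array with median centring.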

How the data were processed

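RNA of 4 ureter pools was hybridised on 2 arrays. Per the file headers, the scanner files hold spot intensity (mean signal, local background and a processed signal), flags and the log10 ratio of red over green processed signal, and the submitters' processing notes name Agilent Feature Extraction 10.7.3.1. The authors' deposited value table holds a signed fold score per probe, and how low values were floored is not stated. Its Pearson correlation across probes with the log2 red over green ratio was 0.905 in the female pair and -0.932 in the male pair, opposite to the dye labels on both, and ratios were turned by the table.

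Mean signal and median background were corrected with normexp (offset 50), and ratios were normalised by loess within arrays by limma 3.58.1 (R 4.3.3). Control spots had weight 0 and outlier spots were left out. Kept spots of the 4 per probe were averaged, and the brightest probe represented a gene. The two-sided limma test, with Benjamini-Hochberg adjustment, covered 22499 genes that stood well above background on each array in 1 channel or both. It had 1 residual and 4 prior degrees of freedom, and the number of arrays limits its precision. The code was tested on simulated data.

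The genes and lists were chosen with earlier results of these data known. Every member is named with every probe, and of the pathway list the genes called by either rule and the 3 largest mean rises and falls; Epgn, Adam10, Errfi1, Egr1, Cblb, Nrg3, Erbb4, the single markers and the genes that only the closing section names were added after their values were seen. Alternatives changed the background correction, normalisation, probe summary, source, filters, fold size and arrays used. RefSeq tables of assembly GRCm38.p6 gave gene order, and the probe sequences are those in the scanner files.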

Additional observations from a re-analysis of the deposited data

Results flagged for a closer look

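Of the 57 members and pathway genes tested, 2 were at least 1.2-fold changed in opposite directions on the female and male arrays, as were 1.38% of all genes tested. Rhbdf2, whose product guides the ligand-releasing protease ADAM17, had a log2 ratio of -0.30 in the female pair and 0.73 in the male pair, a male minus female difference of 1.02. Socs4, which encodes a suppressor of EGFR signalling, had 0.53 in the female pair and -0.58 in the male pair, a difference of -1.11. Neither difference was tested, and sex, dye orientation and array cannot be told apart.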

How the results depend on the processing

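The fold rule, met by 0 members, was met by 1 under median centring (Btc, beside 1.55% of all genes that bright) and by 1 at 1.2-fold (Btc, beside 6.17%). It was also met by 1 when either array was left out. This was Erbb2 without the female array, beside 8.25% of all genes that bright, and Btc without the male array, beside 3.05%. Btc was bright enough on both arrays only through the Pparg-cKO pools, where it was higher. The counts on a single array still asked for brightness on both arrays. Erbb3 was bright on the male array alone, and only through the Pparg-cKO pool, where it was higher, with a ratio of 0.84. The limma count of 0 members became 2 with normexp and no offset (Areg and Btc) and 1 with the processed signals (Areg), with Areg entering only through the control pools. Of all genes tested, limma called 2.54% and 1.08% in these settings against 0.751% in the reported one. Of the pathway list, 0 to 6 genes met the fold rule on a single array, the 6 being Fos as lower and Myc, Phlda1, Rhbdf1, Rhbdf2 and Spry1 as higher on the male array alone, where 6.3% of all genes that bright were higher. The median log2 ratio of all 10 members was 0.20, and it was 0.013 on the female array alone and 0.20 on the male array alone. Other settings changed none of these counts, but the pathway list was not counted at 1.2-fold or 2-fold. Of 155 single-gene values under other settings, 3 passed the threshold (Areg in 2 settings and Btc in 1), 2 of Ereg moved by more than its spread between arrays, and of the other 150 none that had a test passed it. On the female array alone Egf was at -0.04, Tgfa at -0.03 and Phlda1 at -0.22, against means above 0 over both arrays. Ereg, not well above background, has no settled sign. A single array leaves limma no residual degree of freedom, so it could not be tested. Both pools of a pair share an array and the ratio is taken within it, so the pairing is already in the test and no separate paired analysis was run. Signal near background limits Areg, Ereg, Nrg4 and Dusp4.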

Other observations

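Markers of other tissues were read beside the ErbB genes. The 4 liver markers Alb, Afp, Apoa1 and Ahsg summed to signals of 1631 and 1497 in the female control and Pparg-cKO pools and of 3809 and 1736 in the male ones, and their median log2 ratio was -0.05 for females and -1.08 for males. The 4 skeletal muscle markers summed to 7759 and 7267 in the female and 8920 and 6253 in the male pools. Over the 5 neuronal markers the medians were -0.19 and -0.32. None of these markers was called by the fold rule or by limma. Their part in the values of the ligands and receptors was not tested.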
